A study of Mus musculus with 2 samples.

Results

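The cadherin and protocadherin genes of the mouse were examined in embryonic intestine. They were taken by symbol, as every protein-coding gene whose symbol begins with Cdh and a number or with Pcdh, apart from the endothelial cadherin gene Cdh5. This gave 91 of 21474 protein-coding genes measured in both libraries. Of these, 34 lay outside the 3 protocadherin clusters and 57 lay in them, with 14 in Pcdha, 22 in Pcdhb and 21 in Pcdhg. Total RNA was sequenced from 2 intestines of B6NCrl embryos of 14.5 days, from 10 ng of RNA longer than 200 nucleotides per library. There was 1 group, with no treated, mutant or older samples, so no test between groups was possible. The labels call each sample a single intestine and also give its sex as pooled, and they give both the same donor record, pup and dam numbers but collection dates 2 days apart. Spread between the libraries is therefore given as SD with n = 2, and it cannot be told apart into embryo and date.

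Cadherins are calcium-dependent adhesion proteins of the cell surface. Classical cadherins of type I and type II bind the same or a related cadherin on the neighbouring cell and are tied to actin by catenins. In the gut, E-cadherin holds the epithelial sheet together, while other members mark mesenchyme, nerve, muscle or vessels. Protocadherins lack the catenin-binding tail. Those of the clusters are made from a choice of first exons, and in Pcdha and Pcdhg these are spliced to constant exons that all genes of the cluster use.

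The values are TPM, the share of a gene among all transcripts after division by length, which the authors estimated and on which levels of different genes can be compared. Replicates 1 and 2 held 32938592 and 32371363 estimated counts in genes, so TPM 1 stood for 0.0232 and 0.0235 counts per base of a transcript. All 5 markers each of epithelium, mesenchyme, smooth muscle, enteric neurons, endothelium and mesothelium were detected in both libraries, and 4 of 5 of glia and crest. Replicate 2 stood apart by its pancreatic markers, of which all 5 were higher there and which summed to 4.15 TPM in replicate 1, where Ctrb1 and Ins2 were at 0, and 959 TPM in replicate 2. Of 5 skeletal muscle markers, Mylpf at 7.28 and 8.64 TPM and Tnnt3 at 1.11 and 1.85 TPM were detected in both libraries, and Acta1 was at 1.19 and 0.99 TPM. The defining genes of that lineage, Myod1 and Myog, were at 0.05 and 0.12 TPM in replicate 1 and at 0 in replicate 2. In whole tissue, fewer cells of a type and less RNA per cell cannot be told apart.

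At TPM 1 or more in both libraries, which is called detected here, 49 of the 91 genes were detected, against 61.3% of all protein-coding genes. Outside the clusters 22 of 34 were detected, and within them 27 of 57. Another 6 genes passed in 1 library, namely Pcdhb4, Pcdhb8, Pcdhb9, Pcdhb11 and Pcdhgc5 in replicate 1 and Cdh18 in replicate 2. The other 36 were below TPM 1 in both, and none was without a count in both. The median level of the 91 genes was 1.26 TPM, beside 4.90 TPM for all protein-coding genes. The signal was unevenly spread, as Cdh1, Cdh11 and Cdh17 made up 48.9% of the summed cadherin and protocadherin TPM in replicate 1 and 51.0% in replicate 2. In the order of levels, the ranges of neighbours overlapped between Cdh1 and Cdh11, Cdh11 and Cdh17, Pcdhgc4 and Pcdhgc3, and Pcdh1 and Cdh3. They also overlapped in succession from Pcdhgb6 through Pcdh12, Pcdh11x and Pcdh17 to Pcdhga7, and between all neighbours from Cdh24 down to the last detected gene.

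**Figure D1:**
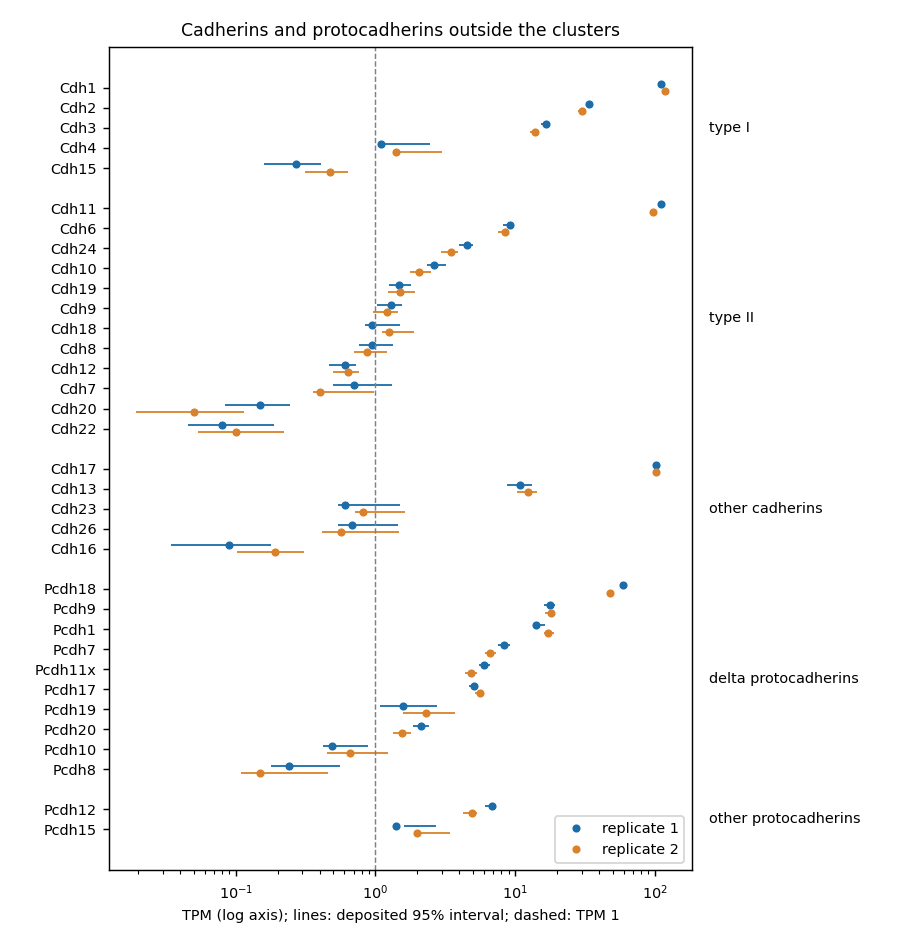
Level of each of the 34 genes outside the clusters in TPM on a log axis, grouped by class, with replicate 1 in blue and replicate 2 in orange and the deposited 95% interval as a line. Cdh1, Cdh11 and Cdh17 lie near 100 TPM, Pcdh18 is the highest protocadherin, and 22 genes lie right of the dashed line at TPM 1 in both libraries.

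Among the type I classical cadherins, Cdh1 led, followed by Cdh2 and Cdh3. Cdh1 (ENSMUSG00000000303; GRCm38, chr8:106603351-106670246, plus strand), which encodes E-cadherin of epithelial adherens junctions, was at 111.21 TPM in replicate 1 and 119.02 TPM in replicate 2, from 11187 and 12037 counts. Its mean of 115 ± 5.52 TPM (SD, n = 2) placed it above 94.2% of protein-coding genes. Cdh2, which encodes N-cadherin of neural and mesenchymal cells, was at 34.14 and 30.27 TPM, so that Cdh1 exceeded it 3.26-fold in replicate 1 and 3.93-fold in replicate 2. Cdh3, the gene of P-cadherin, was at 16.58 and 13.88 TPM, or 0.149 and 0.117 of Cdh1. The ranges of these 3 genes between libraries did not overlap. Cdh4, the gene of R-cadherin, was at 1.10 and 1.40 TPM, while its deposited posterior means were 1.77 and 2.16 TPM. Cdh15, the gene of M-cadherin of skeletal muscle, was at 0.27 and 0.47 TPM, from 17 and 30 counts. The 5 genes summed to 164 ± 1.23 TPM (SD, n = 2).

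The type II cadherins were dominated by a single gene. Cdh11 (ENSMUSG00000031673; chr8:102632095-102785642, minus strand), which encodes OB-cadherin of mesenchymal cells, was at 111.42 TPM in replicate 1 and 97.36 TPM in replicate 2. Its level relative to Cdh6, the next of the class, was 12.2-fold and 11.5-fold. Cdh6, known as kidney cadherin, was at 9.14 and 8.47 TPM, while the kidney markers summed to 0.43 and 1.37 TPM. Cdh11 could not be ordered against Cdh1, since the ratio of Cdh1 to Cdh11 was 0.998 in replicate 1 and 1.22 in replicate 2. Of the remaining type II genes, Cdh24 was at 4.55 and 3.48 TPM and Cdh10, best known from brain, at 2.64 and 2.04 TPM. Cdh19, known from neural crest-derived glia, was at 1.47 and 1.51 TPM beside a summed level of 92.4 and 89.4 TPM for 5 markers of glia and crest. Cdh9 was at 1.30 and 1.21 TPM. The other 6 of the 12 genes, Cdh7, Cdh8, Cdh12, Cdh18, Cdh20 and Cdh22, which are mainly described in the nervous system, had mean levels between 0.09 TPM for Cdh22 and 1.10 TPM for Cdh18.

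Cdh17 was the third highest of all 91 genes and, like Cdh1, overlapped Cdh11 in its range between libraries. Cdh17 (ENSMUSG00000028217; chr4:11758147-11817895, plus strand) encodes LI-cadherin, which is typical of the intestinal epithelium and lacks the catenin-binding region. It was at 102.26 TPM in replicate 1 and 102.30 TPM in replicate 2, from 7986 and 8079 counts, and amounted to 0.920 and 0.860 of Cdh1. Cdh13, which encodes T-cadherin, a cadherin without a transmembrane segment that is anchored by a lipid, was at 10.87 and 12.40 TPM. Its counts ran the other way, with 642 in replicate 1 and 568 in replicate 2, while more of its TPM in replicate 2 lay in short transcripts. Cdh13-203, a retained-intron transcript of 715 bases, took 10.7% of the gene in replicate 1 and 22.6% in replicate 2, and the coding transcript Cdh13-201 of 3785 bases took 59.2% and 39.6%. The remaining 3 of these other cadherins were below TPM 1 in both libraries. They were Cdh16 of kidney at 0.09 and 0.19 TPM, Cdh23 of the tip links of hair cells at 0.61 and 0.81 TPM, and Cdh26 at 0.68 and 0.57 TPM.

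The delta protocadherins are single-gene protocadherins with conserved cytoplasmic motifs, best known from the nervous system. Of the 10 genes grouped here, 8 were detected, with a summed level of 110 ± 7.16 TPM (SD, n = 2). Pcdh18 (ENSMUSG00000037892; chr3:49743296-49757325, minus strand) was the highest protocadherin, at 59.00 TPM in replicate 1 and 48.07 TPM in replicate 2, from 6759 and 5666 counts. It exceeded Pcdh9 by 3.29-fold and 2.67-fold and amounted to 0.530 and 0.494 of Cdh11. Pcdh9 was at 17.95 and 18.02 TPM, and Pcdh1, which is also found in epithelia, at 14.24 and 17.22 TPM. Pcdh7 was at 8.41 and 6.57 TPM, Pcdh11x at 6.03 and 4.84 TPM, and Pcdh17 at 5.09 and 5.62 TPM. Near the limit lay Pcdh19, the gene of an X-linked human epilepsy, at 1.57 and 2.30 TPM, and Pcdh20 at 2.11 and 1.56 TPM. Pcdh10 at 0.49 and 0.66 TPM and Pcdh8, known from somite formation, at 0.24 and 0.15 TPM were not detected.

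For the 3 highest delta protocadherins with an entry in the RefSeq promoter table, the 250 bases before and 50 bases after the transcription start are given, so that the start regions of the levels above can be read. They are from GRCm38.p6, at chr3:49757267-49757566 on the minus strand for Pcdh18, chr14:93890630-93890929 on the minus strand for Pcdh9 (the first of its starts listed) and chr5:57717831-57718130 on the plus strand for Pcdh7. Capitals mark a GC box, GGGCGG or its reverse complement CCGCCC, and a CCAAT box, CCAAT or its reverse complement ATTGG, and no matches overlapped.
Pcdh18: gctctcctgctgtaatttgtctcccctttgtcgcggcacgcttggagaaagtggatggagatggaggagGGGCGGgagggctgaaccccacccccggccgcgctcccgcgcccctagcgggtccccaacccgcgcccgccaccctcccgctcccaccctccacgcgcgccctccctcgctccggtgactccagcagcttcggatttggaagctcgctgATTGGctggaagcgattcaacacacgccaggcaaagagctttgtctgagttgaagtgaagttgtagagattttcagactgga
Pcdh9: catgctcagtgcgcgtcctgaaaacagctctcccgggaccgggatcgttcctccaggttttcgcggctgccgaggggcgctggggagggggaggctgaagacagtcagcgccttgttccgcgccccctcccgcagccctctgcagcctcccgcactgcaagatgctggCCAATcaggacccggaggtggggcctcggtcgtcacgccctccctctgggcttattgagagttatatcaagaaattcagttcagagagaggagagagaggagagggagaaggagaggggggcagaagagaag
Pcdh7: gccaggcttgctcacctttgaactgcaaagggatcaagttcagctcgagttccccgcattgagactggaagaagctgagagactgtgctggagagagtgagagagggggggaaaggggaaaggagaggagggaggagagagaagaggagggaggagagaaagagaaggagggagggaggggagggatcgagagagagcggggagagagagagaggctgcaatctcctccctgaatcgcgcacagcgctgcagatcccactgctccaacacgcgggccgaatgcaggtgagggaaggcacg
The Pcdh18 window held 1 GC box and 1 CCAAT box, the Pcdh9 window 1 CCAAT box, and the Pcdh7 window neither. None held TATAAA or TTTATA. Among 32851 RefSeq windows of this length, 35.7% held a GC box, 37.4% a CCAAT box and 13.6% a TATA box of these letters. The GC content was 63.0% for Pcdh18, 62.7% for Pcdh9 and 59.3% for Pcdh7, against a median of 52.7% over all windows and 59.8% over the 22 members that had an entry. These matches are descriptions of letters in a window, not sites.

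The other 2 protocadherins outside the clusters were both above TPM 1, but mostly not in coding transcripts. Pcdh12, an endothelial protocadherin gene, was at 6.83 TPM in replicate 1 and 4.89 TPM in replicate 2. Its protein-coding transcripts held 0.80 and 1.42 TPM of this, and the retained-intron transcript Pcdh12-204 held 60.8% and 57.3% of the gene. The endothelial markers summed to 136 and 127 TPM, and Cdh5, left out of the selection, was at 20.64 and 22.20 TPM. Pcdh15, the partner of Cdh23 in hair cell tip links, was at 1.41 and 2.00 TPM over 41 listed transcripts, with 40.4% and 25.5% of it in coding ones.

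The clusters differed in level. They lie on mouse chromosome 18 in the order Pcdha (chr18:36930184-37187661), Pcdhb (chr18:37264938-37524479) and Pcdhg (chr18:37661793-37841873). None of the 14 Pcdha genes, 7 of the 22 Pcdhb genes and 20 of the 21 Pcdhg genes were detected in both libraries. The summed levels were 3.26 ± 0.0919 TPM for Pcdha, 24.4 ± 3.98 TPM for Pcdhb and 94.6 ± 6.57 TPM for Pcdhg (SD, n = 2 each). Together the clusters made up 18.9% of the summed TPM of the 91 genes.

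**Figure D2:**
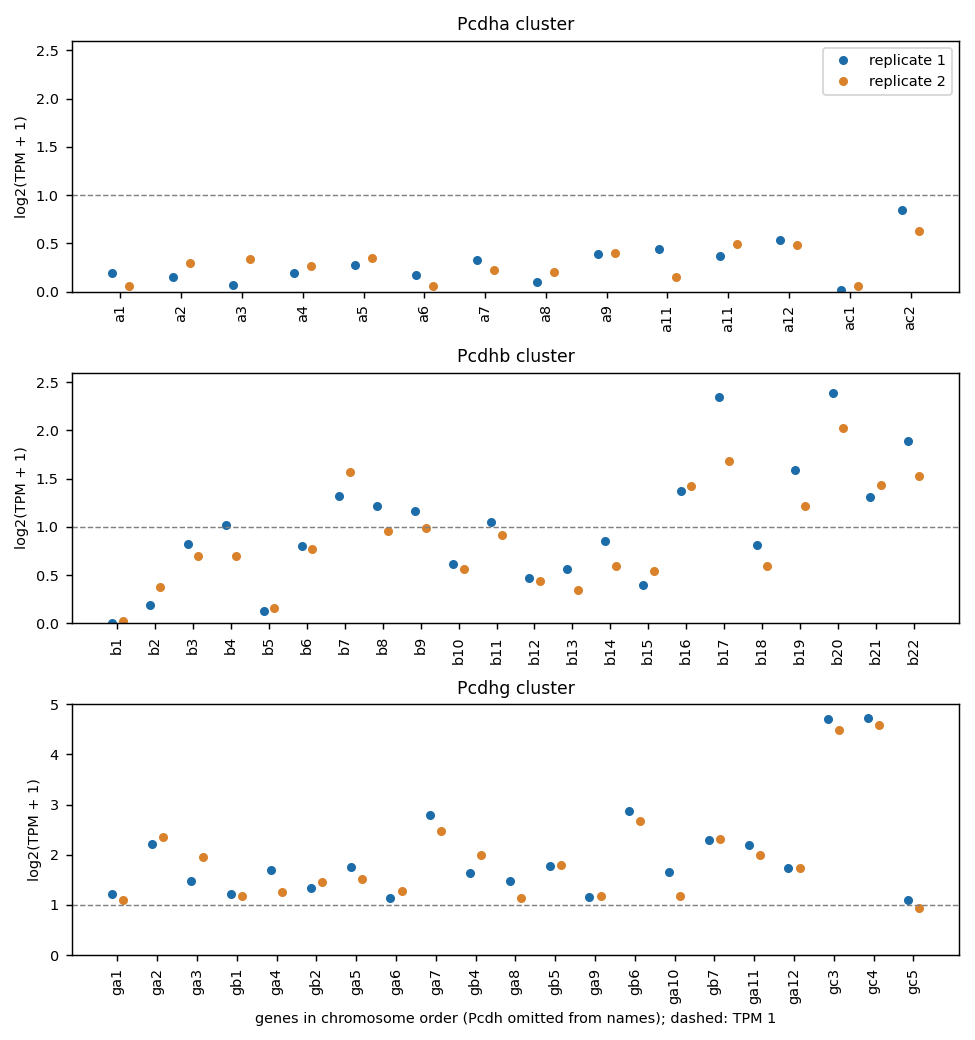
Level of every gene of the Pcdha, Pcdhb and Pcdhg clusters as log2(TPM + 1), in chromosome order from left to right, with replicate 1 in blue and replicate 2 in orange. The label a11 stands for both genes of that symbol, and the dashed line marks TPM 1, below which all 14 Pcdha genes fall. Pcdhgc3 and Pcdhgc4 stand above the rest of Pcdhg, and the vertical scale of that panel is wider.

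Every Pcdha gene was below TPM 1 in each library. The highest was Pcdhac2, one of the 2 first exons of type C, at 0.80 TPM in replicate 1 and 0.55 TPM in replicate 2, from 108 and 75.2 counts. It held 24.1% and 17.2% of the Pcdha TPM. Pcdhac1, the other of type C, was at 0.01 and 0.04 TPM, from 1.70 and 5.15 counts. Pcdha12 followed Pcdhac2 at 0.45 and 0.40 TPM. The 12 genes not of type C lay between 0.05 and 0.45 TPM in replicate 1 and between 0.04 and 0.41 TPM in replicate 2. The symbol Pcdha11 is carried by 2 genes, of which ENSMUSG00000007440 was at 0.36 and 0.11 TPM and ENSMUSG00000102206 at 0.29 and 0.41 TPM. The order of the genes by level was poorly repeated, with a Spearman correlation between libraries of 0.588 over the 14 genes, whose counts were low. It was 0.879 over the 21 Pcdhg genes, which share constant exons as the Pcdha genes do. The cause of the poor repeat was not tested.

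The Pcdhb genes are single-exon genes for the most part, and their order by level was well repeated, with a Spearman correlation between libraries of 0.963 over 22 genes. Pcdhb20 was at 4.24 TPM in replicate 1 and 3.06 TPM in replicate 2, Pcdhb17 at 4.07 and 2.20 TPM, and Pcdhb22 at 2.71 and 1.89 TPM. These genes lie toward the end of the cluster nearest Pcdhg. Along the chromosome, position in the cluster and TPM had a Spearman correlation of 0.618 in replicate 1 and 0.548 in replicate 2. The same correlation was also positive in the other clusters, at 0.484 and 0.342 in Pcdha and 0.329 and 0.232 in Pcdhg. The last 7 genes, Pcdhb16 to Pcdhb22, held 61.8% and 57.3% of the Pcdhb TPM, a division chosen after the values were seen. Of the first 15 genes, Pcdhb7 alone was detected in both libraries, at 1.49 and 1.96 TPM. Pcdhb1 had no count in replicate 1 and 1 count in replicate 2, under the floor of 3 counts.

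In Pcdhg, all 12 genes of subfamily A and all 6 of subfamily B were detected. Subfamily A ranged over 1.19 to 5.97 TPM in replicate 1 and 1.15 to 4.56 TPM in replicate 2, led by Pcdhga7. Subfamily B ranged over 1.34 to 6.37 TPM and 1.27 to 5.37 TPM, led by Pcdhgb6. By TPM, type C genes were both the highest and the lowest of the cluster. Pcdhgc3 was at 25.29 and 21.54 TPM, which was 3.97 and 4.01 times Pcdhgb6. Pcdhgc4, which mouse neurons need for survival, was at 25.36 and 23.20 TPM. Together these genes held 51.1% and 49.8% of the Pcdhg TPM. Pcdhgc5 was at 1.15 and 0.93 TPM, the sole gene of the cluster below TPM 1 in a library. Its posterior means were 1.67 and 1.46 TPM, and by these Pcdhga1 was the lowest of the cluster, at 1.31 and 1.13 TPM.

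The level of Pcdhgc4 rested on 1 short transcript. Pcdhgc4-203, of 2272 bases, carried 21.57 TPM in replicate 1 and 20.64 TPM in replicate 2, or 85.0% and 89.0% of the gene. Of its bases, 2119 are also exonic in other genes of its strand and 153 are its own. Pcdhgc4-203 is counted among the protein-coding transcripts, which together held 89.1% and 90.5% of the gene. The full-length coding transcript Pcdhgc4-201, of 5024 bases, carried 1.02 and 0.36 TPM. The other transcripts of Pcdhgc4 together held 3.79 and 2.56 TPM, within the range of subfamilies A and B. The reads of Pcdhgc4-203 were not assigned anew, so the level of the gene without that transcript is not known. For Pcdhgc3, by contrast, the full-length coding transcript Pcdhgc3-201 carried 21.04 and 16.76 TPM, and 2568 of its 4687 bases belong to no other gene of that strand. Genes of the opposite strand overlap 28.4% of the exonic bases of Pcdhgc3. How far counts from the constant exons were placed on the right gene was not tested.

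**Figure D3:**
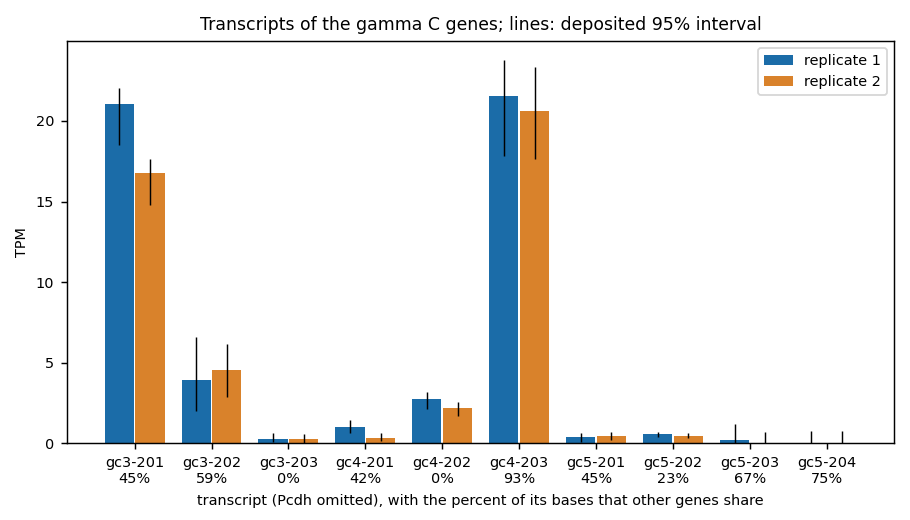
TPM of each annotated transcript of Pcdhgc3, Pcdhgc4 and Pcdhgc5 as bars, replicate 1 in blue and replicate 2 in orange, with the deposited 95% interval of the transcript as a line. The percent under each name is the part of its bases that other genes of the same strand share, and Pcdhgc4-203, with 93.3%, carries most of Pcdhgc4.

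Sharing of exons marked Pcdha and Pcdhg among the 91 genes. By the annotation, a median of 53.6% of the exonic bases of a Pcdha gene and 44.6% of those of a Pcdhg gene are exonic in another gene of the same strand as well. In Pcdhb 20 of 22 genes share none on their strand, and outside the clusters no gene does. Genes on the opposite strand overlap some of the 91 genes. Examples are 21.2% of the exonic bases of Pcdh7, 28.4% of those of Pcdhgc3, 55.2% of those of Pcdhga10 and 63.5% of those of Pcdhb12. The use of strand in counting is not stated. The deposited 95% intervals, which lie around the deposited posterior mean and can leave out the TPM, were compared with the width that counting error alone would give. For genes with at least 10 counts the median ratio was 1.27 in Pcdhg (n = 21) and 1.25 in Pcdha (n = 13), against 1.00 in Pcdhb (n = 9), 1.00 in type II cadherins (n = 7) and 1.04 in type I cadherins (n = 4), in each case at posterior mean TPM 1 or more except Pcdha, which was taken at 0.1 or more. It was 1.39 in the delta protocadherins (n = 8), 1.33 in the other cadherins (n = 3) and 1.28 in the other protocadherins (n = 2), which share no bases on their strand. The largest ratios outside the clusters were 3.14 for Pcdh19 with 5 listed transcripts, 2.47 for Cdh4 with 6 and 2.34 for Cdh13 with 7. In Pcdhgc4 the ratio was 2.29 and in Pcdhgc5 2.55.

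**Figure D4:**
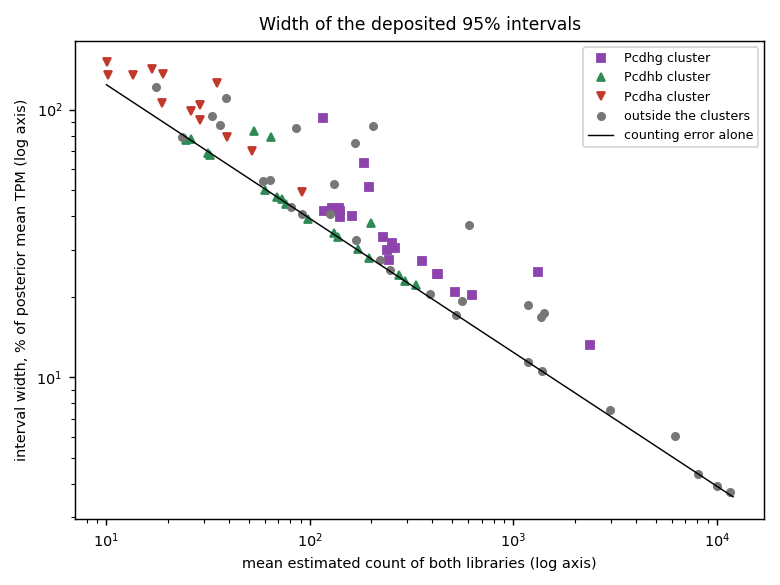
Width of the deposited 95% interval, in percent of the posterior mean TPM, against the mean estimated count of both libraries, each on a log axis, 1 point per gene with at least 10 counts. Most Pcdhb genes (triangles) lie along the line given by counting error alone, while Pcdhg genes (squares) and Pcdha genes (inverted triangles) lie above it.

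Of the 49 detected genes, 21 have a single listed transcript, as do 3567 of the 13173 detected protein-coding genes. Among the other 28 of the 49, the leading transcript was the same in both libraries in 24, or 85.7%. It was the same in 91.0% of 9606 detected protein-coding genes with several transcripts. In 28 of the 49 the TPM lay in protein-coding transcripts in both, to within 0.1 percentage points. These include the 21 genes with a single listed transcript, for which the annotation fixed the outcome. In 4 genes less than 50% of the TPM was coding in both libraries, namely Pcdh12, Pcdh15, Pcdhgb4 and Pcdhga12. How often either holds among all detected protein-coding genes was not computed. Pcdhga12 had 1.11 TPM in replicate 1 and 0.35 TPM in replicate 2 in its coding transcript, and the rest in a retained-intron transcript without shared bases. Counted by protein-coding transcripts only, 42 genes were detected in place of 49, a count added after the data were seen. The same count was not made over all protein-coding genes, so this drop has no background beside it. The lead changed in Pcdh15, Pcdh19, Pcdhgb2 and Pcdh1, and in Pcdh1 Pcdh1-202 held 64.2% and 42.3% of the gene and Pcdh1-201 held 22.3% and 47.1%. Pcdh7 kept its leading transcript Pcdh7-203, at 53.7% and 67.6%, but Pcdh7-205 held 22.7% in replicate 1 and 0.93% in replicate 2. Its counts of 1233 and 1125 were closer to each other than its TPM values were.

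Between the libraries no gene differed by the rule of a mean of at least 5 TPM, a difference of at least 1 in log2(TPM + 1) and separate intervals. This held for 0 of 18 genes that reached the mean, against 0.449% of protein-coding genes. The largest difference among them was 0.41, for Pcdh12. By separate intervals alone, at a mean of at least 1 TPM, 14 of 53 genes were higher in replicate 1, where 15.9% of protein-coding genes were, and 3 of 53 were higher in replicate 2, where 7.22% were. Intervals cover counting and assignment error within a library only, so these counts describe 2 libraries and not embryos in general. The median difference in log2(TPM + 1), replicate 1 minus replicate 2, was 0.18 over the 18 genes and 0.05 over protein-coding genes of the same mean.

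**Figure D5:**
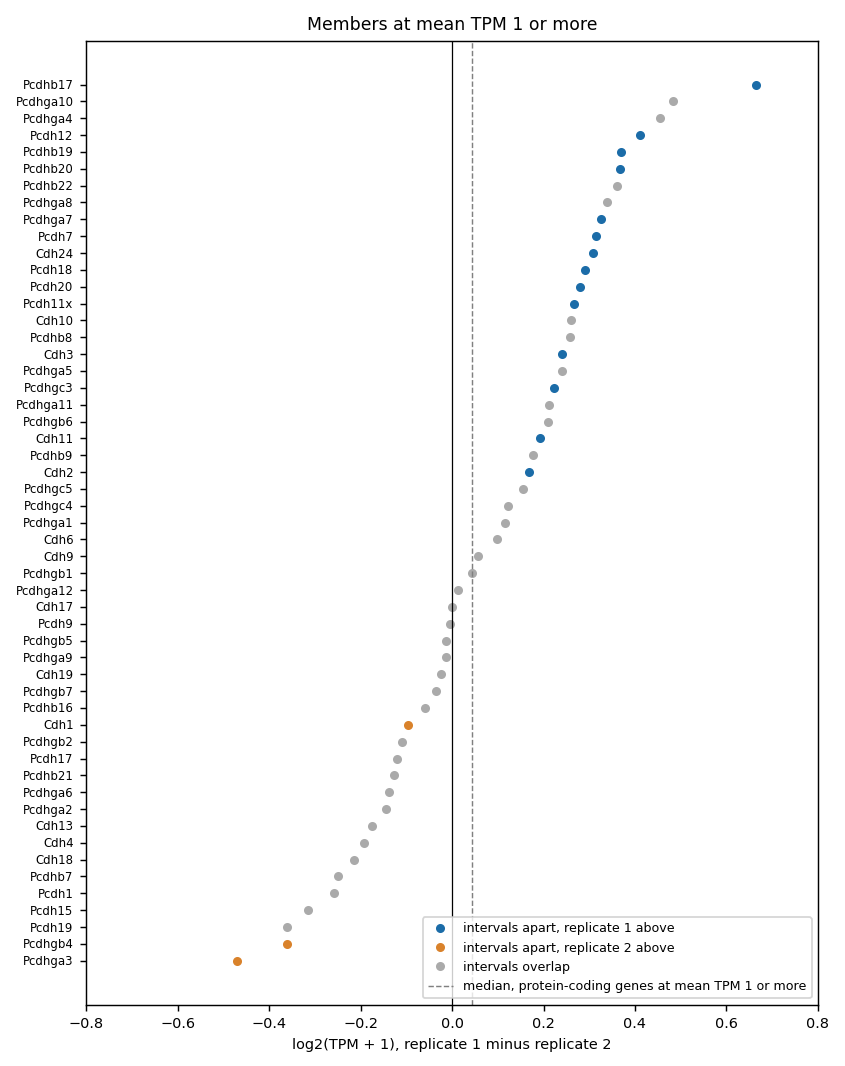
Difference in log2(TPM + 1), replicate 1 minus replicate 2, for the 53 genes with a mean of at least 1 TPM, sorted by size. The 14 blue points are genes whose interval lies higher in replicate 1, the 3 orange points those whose interval lies higher in replicate 2, and the dashed line is the median of protein-coding genes at the same mean.

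The highest members did not all lie on the same side. Cdh11 and Pcdh18 were higher in replicate 1, by 0.19 and 0.29 in log2(TPM + 1), and their intervals stayed apart under each of 4 other scalings of the libraries. Cdh2, by 0.17, and Cdh3, by 0.24, did likewise. Cdh1 was higher in replicate 2 by separate intervals, with a difference of -0.10, and overlapped once the libraries were scaled to the spike-ins. Cdh17, at 102.26 and 102.30 TPM, had overlapping intervals, and under spike-in scaling it was higher in replicate 1. Beside these, the 5 epithelial markers summed to 1357 TPM in replicate 1 and 1484 TPM in replicate 2, with Krt8, Krt18 and Cdx2 higher in replicate 2 by their intervals, and the 5 mesenchymal markers to 2824 and 2649 TPM, with Col3a1, Vim and Pdgfra higher in replicate 1 and Col1a1 higher in replicate 2. The pancreatic markers, which come from another epithelial organ, were those that set replicate 2 apart. The part of tissue makeup in the cadherin differences was not tested.

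In all, 10 of the 17 genes kept separate intervals in the same direction under the 4 other scalings, as did 54.5% of the 3108 protein-coding genes with separate intervals. Those from the clusters were Pcdhb17, Pcdhb19, Pcdhb20 and Pcdhga7, higher in replicate 1, and Pcdhga3, higher in replicate 2 with 1.80 TPM in replicate 1 and 2.88 TPM in replicate 2. Among all 53 genes Pcdhb17 had the largest difference, 0.66. Outside the clusters Cdh2, Cdh3, Cdh11, Pcdh12 and Pcdh18 kept separate intervals. The other 7, Cdh1, Cdh24, Pcdh7, Pcdh11x, Pcdh20, Pcdhgb4 and Pcdhgc3, overlapped under at least 1 scaling.

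The partners through which classical cadherins act were present. Of 15 catenins and related genes, 14 were detected. For this list and those below, the share to compare is the 61.3% of all protein-coding genes that were detected. Ctnnb1, the gene of beta-catenin, was at 394 ± 22.1 TPM, Ctnna1, the gene of alpha-catenin, at 141 ± 15.4 TPM, and Jup, the gene of plakoglobin, at 75.7 ± 4.12 TPM (SD, n = 2 each). Pkp1, the desmosomal plakophilin of stratified epithelia, was not detected, at 0.07 TPM in each library. Of 9 desmosomal cadherins 2 were detected, Dsc2 at 38.51 and 33.82 TPM and Dsg2 at 12.20 and 14.27 TPM, the pair known from simple epithelia, followed by Dsc3 at 0.86 and 0.94 TPM. Of 18 other members of the cadherin superfamily 11 were detected, led by the giant protocadherin gene Fat1 at 28.29 and 29.28 TPM. Next came Cdhr5, which joins brush border microvilli, at 22.03 and 22.53 TPM, and Clstn1, the gene of a calsyntenin, at 16.15 and 24.05 TPM.

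Genes that act on cadherins were also detected, and their counts are set beside the same 61.3% of all protein-coding genes. Of 12 genes for cadherin proteases and traffic 11 were detected. They included Rab11a, of recycling endosomes, at 281.13 and 290.72 TPM, and Adam10, the sheddase of E-cadherin, at 53.77 and 49.83 TPM. Mmp7, a matrix protease, was at 0.36 and 0.66 TPM. Of 16 repressors and activators of Cdh1 15 were detected, led by the repressors Tcf3 at 84.85 and 90.82 TPM and Snai2 at 92.64 and 74.22 TPM and the epithelial factor gene Klf5 at 73.08 and 85.96 TPM. Ovol2 was at 0.72 and 0.74 TPM. All 14 regulators of the protocadherin clusters were detected, led by the cohesin gene Smc1a at 77.90 and 69.88 TPM, Ctcf, whose product binds cluster promoters, at 72.29 and 70.36 TPM, and Rad21, also of cohesin, at 59.63 and 55.56 TPM.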

How the data were processed

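Total RNA-seq of 2 embryonic intestines was used. Each expected count, the authors' estimate of the reads of a gene or transcript, was deposited per library on mm10 with GENCODE M4, per the file headers and the deposited notes. TPM values were deposited beside them, as were the percent of each isoform in its gene and the bounds of a 95% interval of TPM, which are taken here as scores. Neither the quantifier nor its handling of strand is stated in the sources consulted. GENCODE M21 (GRCm38, the same assembly) supplied symbols, biotypes, exons and coordinates, and 42462 of 43346 gene identifiers matched it. Transcript lengths, transcript types and shared bases given here are from M21, while TPM rests on the deposited lengths, which can differ. Cdh6, with 1 listed transcript, had a deposited length of 2632 bases and 8167 exonic bases in M21, and Cdh11 had 4216 and 5647. Spike-ins took 4.54% and 4.91% of the counts and are part of the TPM total.

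The members and gene lists were chosen with earlier results of these data known. Named by rule were members outside the clusters at TPM 1 or more in both libraries, the 3 highest and the type C genes of each cluster, and the 3 highest genes of each partner list with its few undetected ones, apart from 1 gene that is not reported here. Other named members were chosen after their values were seen. A difference needed a mean of 5 TPM, 1 in log2(TPM + 1) with pseudocount 1, and intervals apart. A second rule, intervals apart at a mean of 1 TPM, and the motifs were added after the data were seen. Library totals were 34504419 and 34042802 counts over all features. The floor was 3 counts per library and covers counting error only. The deposited intervals cover counting and the division of reads within a library, not spread between embryos. Alternatives rescaled the libraries by TMM factors (edgeR 4.0.16) and size factors (DESeq2 1.42.0) from expected counts rounded to whole numbers, by spike-in totals and by nuclear protein-coding TPM, and changed thresholds, pseudocount, value type and library.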

Additional observations from a re-analysis of the deposited data

Results flagged for a closer look

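Inside the protocadherin clusters, genes that are not among the 91 were looked at where they are antisense, carry a Pcdh symbol or are protein-coding on the plus strand, and 3 of them had at least 10 counts in both libraries, above the floor of 3. Pcdhgb8, annotated as a polymorphic pseudogene, averaged 0.48 TPM, with 52.5 counts in replicate 1 and 48.6 in replicate 2. BC037039, annotated as antisense, averaged 2.59 TPM, with 127 counts in each library. Gm37165, also antisense, averaged 0.525 TPM, with 21.8 and 11.4 counts. The use of strand in counting is not stated, so reads of an antisense gene and of any protocadherin gene it overlaps cannot be told apart.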

How the results depend on the processing

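The count of 49 detected genes became 15 at TPM 5, where 48.8% of protein-coding genes passed, 80 at a count of 10, where 68.9% passed, and 29 without the Pcdha and Pcdhg clusters. The last setting removes 14 Pcdha and 21 Pcdhg genes from the 91, so its counts are from a smaller set. From 1 library at a time the count of detected genes was 50 and 54. At TPM 0.5, with posterior means, with nuclear protein-coding scaling and with coding transcripts only it stayed within 1.5 times. The count of 0 differing genes stayed 0 under all 8 alternatives tried, each changing a single setting. With pseudocount 1, a gene below TPM 1 in both libraries cannot reach a difference of 1, whatever the filter. With pseudocount 0.1 and no filter together, Pcdha11 (ENSMUSG00000007440), at 0.36 and 0.11 TPM, and Pcdha3, at 0.05 and 0.26 TPM, met the rule. Both rest on few counts, and the share over all protein-coding genes was not computed. The count of 0 is not from a test, so no unadjusted p exists, and it could not be formed without a replicate. Genes higher in replicate 1 by their intervals numbered 10 with TMM factors, 9 with DESeq2 size factors and 20 with spike-in totals, where 9.28%, 9.18% and 32.3% of protein-coding genes were, and 9 at a mean of 5 TPM, in place of 14. Those higher in replicate 2 numbered 5, 5 and 1 under the same scalings, where 11.7%, 11.8% and 3.43% of protein-coding genes were, 1 at a mean of 5 TPM and 1 without the Pcdha and Pcdhg clusters, in place of 3. These scalings shift log2 differences by -0.05 (TMM and DESeq2) and by 0.09 (spike-in totals).

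Posterior means moved Cdh4 to 1.57 times its TPM, and the summed level to 161 TPM in type I cadherins, 114 in the other cadherins and 3.64 in Pcdha. Scaling to nuclear protein-coding genes, which enlarges all values alike, gave 215 TPM for type I, 165 for type II, 151 for other cadherins, 144 for delta protocadherins, 9.91 for other protocadherins, 4.26 for Pcdha, 32.0 for Pcdhb and 124 for Pcdhg. As deposited, type II summed to 126 TPM, other cadherins to 115 and other protocadherins to 7.565, and the other sums are given above. Median interval widths, in percent of the posterior mean, were 10.6 in type I, 42.7 in type II, 87.7 in other cadherins, 19.2 in delta protocadherins and 46.5 in Pcdhb once genes down to a posterior mean of 0.1 TPM entered. Of 33 single-gene levels, 7 moved by more than the SD with posterior means and 31 with nuclear protein-coding scaling. With 2 libraries an SD has 1 degree of freedom, and genes below TPM 1 rest on few counts.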
